A study of Homo sapiens with 6 samples.

Results

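Polycomb repressive complex 2 (PRC2) is represented here by 10 genes, taken from a list of its core and accessory subunits by name: EZH1, EZH2, EED, SUZ12, JARID2, AEBP2, MTF2, PHF19, PHF1 and EPOP. All 10 were among the 59653 gene symbols of the count table, and all 10 passed the filter on low counts that kept 17592 genes. The 6 libraries are poly(A) RNA from PA1, an established human ovarian teratocarcinoma line labelled wildtype, 3 from cells given a negative control small interfering RNA (siRNA) and 3 from cells given siRNA against SOX2, a transcription factor of pluripotent and neural progenitor cells. The labels name 2 SOX2 siRNAs without saying whether they were pooled, and every library comes from the same line. Cells were transfected while adherent, moved after 24 h to non-adherent plates and harvested after a further 72 h in suspension, in both groups. Nothing in the labels says that the replicates were separate cultures. The p-values thus set group differences against the spread between these libraries, which may be technical.

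PRC2 is the enzyme complex that methylates histone H3 at the site known as H3K27, a mark of silenced chromatin that keeps developmental regulators off in pluripotent cells. EZH2 or its paralog EZH1 supplies the catalytic SET domain, which works only when bound to EED, a reader of the methylated histone tail, and SUZ12, the scaffold. The histone-binding proteins RBBP4 and RBBP7 complete the core. Accessory subunits bind SUZ12 in mutually exclusive sets: JARID2 and AEBP2 form the variant called PRC2.2, and one of the Polycomb-like proteins MTF2, PHF19 or PHF1, often with EPOP, forms PRC2.1. Both variants are known from embryonic stem cells, where they share most targets but are recruited differently.

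Total counts ran from 25152313 to 32753184 per library, and 3 counts, the smallest amount treated as distinct from none, equalled 0.0909 to 0.120 CPM (counts scaled by library size). SOX2 itself, the check on the labels, was at 245, 265 and 256 CPM in control replicates 1 to 3 and at 51.8, 54.9 and 50.6 CPM after SOX2 siRNA, so 20.5% of its level remained. Of the embryonal markers, POU5F1, SALL4, LIN28A, DNMT3B and PODXL had 2403 counts or more in every library, whereas TDGF1 had at most 3 counts, and DPPA4 and L1TD1 at most 100 and 88. The embryonal markers moved in both directions, with log2 fold changes of -0.97 for PODXL, 0.70 for LIN28A, 0.40 for DNMT3B and 0.17 for POU5F1, all called, and of -0.07 for SALL4, not called. Of the markers of other cell types, PTPRC, CD3E, INS and MYOD1 had at most 3 counts, LUM at most 51 and ALB at most 68; the endothelial genes PECAM1 and CDH5 and the matrix gene COL1A1 were present, at 1288 to 2072, 143 to 293 and 6373 to 11710 counts. Summed, the 10 markers of other types stood at 329 to 377 CPM in the controls and at 393 to 442 CPM after SOX2 siRNA. Most of these sums was COL1A1, at 254 to 301 CPM in the controls and 341 to 388 CPM after SOX2 siRNA. The 8 embryonal markers summed to 2528 to 2607 CPM in the controls and to 2420 to 2469 CPM after SOX2 siRNA. PECAM1 and CDH5 had log2 fold changes of -0.55 and -0.71 and COL1A1 of 0.34. The part of either set of markers in the results was not tested.

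When SOX2 was reduced, the PRC2 genes moved in both directions and by modest amounts. PHF19, MTF2 and EZH2 rose, by 44.0%, 17.9% and 9.42%, and JARID2, AEBP2 and SUZ12 fell by 21.8%, 18.8% and 12.0%. EED, EZH1, PHF1 and EPOP did not pass the test. Thus 6 of 10 members were called, 3 higher and 3 lower, at a Benjamini-Hochberg adjusted p under 0.05 in edgeR's quasi-likelihood test; of all tested genes 28.2% were called, 14.8% higher and 13.4% lower. All 10 members are well expressed, between the 62.3rd and the 91.6th percentile of average log2 CPM, and 37.1% were called among tested genes at or above the level of the lowest member, PHF19. The 6 called members are also the 6 whose groups did not overlap, a pattern seen in 41.8% of tested genes. No member reached a 2-fold change, and the median log2 fold change was 0.0033 for the members and -0.00085 for all tested genes; the medians of the sizes, signs aside, were 0.157 and 0.146.

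**Figure D1:**
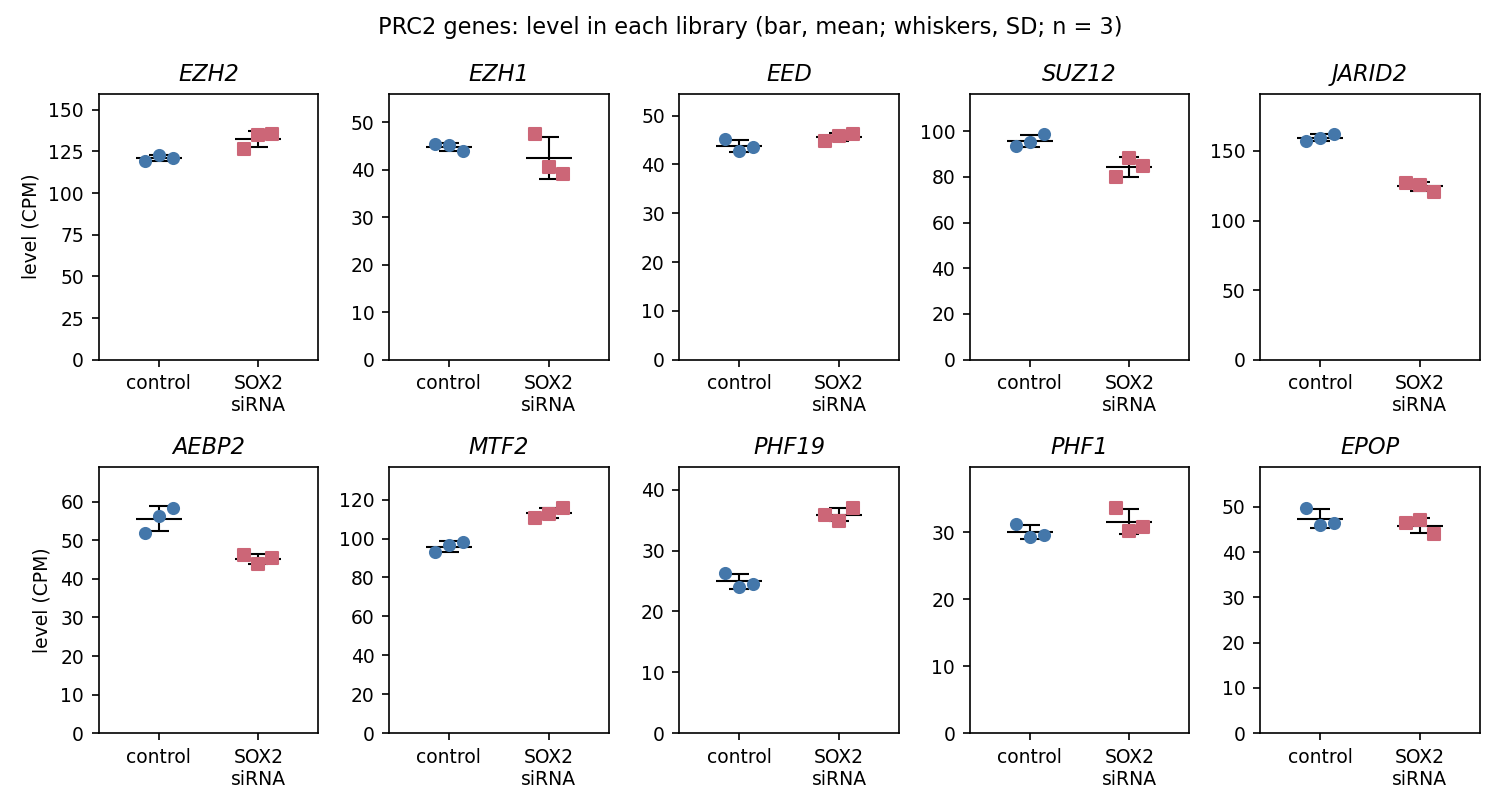
Level of each PRC2 gene in CPM (vertical axis, from 0) in the 3 control libraries (circles) and the 3 SOX2 siRNA libraries (squares), with the mean as a bar and the SD as whiskers. JARID2 (121 to 127 CPM after siRNA against 157 to 162) and PHF19 (34.8 to 37.1 against 23.9 to 26.3) have groups that lie well apart, and the groups overlap for EZH1, EED, PHF1 and EPOP.

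Levels were ordered by CPM per kilobase of the longest protein-coding transcript in GENCODE 29, from 2223 bases for EED to 5755 for JARID2. In control libraries EZH2 stood highest at 45.8 ± 0.683 CPM per kb, followed by JARID2 at 27.7 ± 0.443, MTF2 at 23.2 ± 0.641, SUZ12 at 21.3 ± 0.578 and EED at 19.7 ± 0.551 (SD, n = 3). A lower tier held PHF1 at 12.9 ± 0.426, EPOP at 12.7 ± 0.567, AEBP2 at 10.9 ± 0.647, EZH1 at 9.70 ± 0.181 and PHF19 at 5.88 ± 0.288. Among neighbours in this order only the libraries of PHF1 and EPOP overlapped. After SOX2 siRNA, MTF2 (27.4 ± 0.635 CPM per kb) stood above JARID2 (21.7 ± 0.579) and EED (20.5 ± 0.327) above SUZ12 (18.8 ± 0.942), while EZH1, AEBP2 and PHF19 (9.18 ± 0.968, 8.86 ± 0.249 and 8.47 ± 0.267) overlapped with their neighbours. The order depends on the length used. Over the union of all annotated exons EED was 9th of 10 in control libraries. By that length EZH2 was barely above JARID2 there, at 26.7 ± 0.399 against 26.5 ± 0.424 CPM per kb. After SOX2 siRNA, JARID2 then stayed above MTF2 (20.7 ± 0.554 against 19.1 ± 0.443 CPM per kb). SUZ12 likewise stayed above EED (12.9 ± 0.646 against 6.50 ± 0.104 CPM per kb).

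The first comparison among the core subunits concerned the catalytic pair. EZH2 (GRCh38 chr7:148807383-148884321, minus strand), the form that dominates in dividing cells, was at 119, 123 and 121 CPM in control replicates 1 to 3 and at 127, 135 and 135 CPM in SOX2 siRNA replicates 1 to 3. Every SOX2 siRNA library stood above every control library, the nearest being replicate 1. The log2 fold change was 0.13 (SE 0.0386, 95% interval 0.0489 to 0.212; edgeR adjusted p = 0.0172). This was the smallest change of the 6, and the call was lost when control replicate 3, SOX2 siRNA replicate 2 or SOX2 siRNA replicate 3 was left out (edgeR adjusted p = 0.0550, 0.111 and 0.0729), with log2 fold changes between 0.11 and 0.16 over the 6 such fits. EZH1 (chr17:42700275-42745049, minus strand), the paralog that prevails in resting cells, was at 45.4, 45.3 and 43.9 CPM in control and at 47.5, 40.7 and 39.1 CPM in SOX2 siRNA libraries. Replicate 1 of the SOX2 siRNA group was the highest of all 6 libraries and replicates 2 and 3 were the lowest, giving the widest spread of any member (coefficient of variation 10.5%). Its log2 fold change was -0.08 (SE 0.0632, 95% interval -0.215 to 0.0551; edgeR adjusted p = 0.392); without SOX2 siRNA replicate 1 it was -0.17 (edgeR adjusted p = 0.0171), and -0.03 without SOX2 siRNA replicate 3.

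The EZH2 to EZH1 ratio, in CPM per kb, was 4.60, 4.75 and 4.82 in control and 4.67, 5.81 and 6.06 in SOX2 siRNA libraries. Means were 4.72 ± 0.117 and 5.51 ± 0.743 (SD, n = 3), and the groups overlapped because SOX2 siRNA replicate 1 lay among the control values. The difference of the means was 0.79, against 0.52 without SOX2 siRNA replicate 3, 1.21 without SOX2 siRNA replicate 1 and 0.45 in plain CPM. In both groups the EZH2 transcript was thus several times as abundant as that of EZH1.

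Of EED and SUZ12, the partners that make EZH2 active, only SUZ12 was called, and the difference between the genes was not tested. EED (chr11:86244544-86278813, plus strand) was at 45.1, 42.7 and 43.5 CPM in control and at 44.8, 45.8 and 46.2 CPM in SOX2 siRNA libraries. Control replicate 1 lay above SOX2 siRNA replicate 1, so the groups overlapped. Its log2 fold change was 0.06 (95% interval -0.0385 to 0.154; edgeR adjusted p = 0.390), which does not show that the level was equal. SUZ12 (chr17:31937018-32001045, plus strand) was at 93.6, 95.2 and 98.7 CPM in control and at 79.9, 88.3 and 85.0 CPM in SOX2 siRNA libraries. All 3 SOX2 siRNA libraries lay below the lowest control library, and the log2 fold change was -0.18 (SE 0.0437, 95% interval -0.276 to -0.0916; edgeR adjusted p = 0.00410). The SUZ12 to EZH2 ratio in CPM per kb fell from 0.466 ± 0.0124 to 0.375 ± 0.00853 (SD, n = 3), with no overlap of the groups.

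SUZ12 has a partial duplicate, the transcribed pseudogene SUZ12P1, whose reads may be shared with it. SUZ12P1 was counted at 25.8, 27.5 and 26.2 CPM in control and at 22.7, 23.1 and 24.3 CPM in SOX2 siRNA libraries, a log2 fold change of -0.18 (SE 0.0563; edgeR adjusted p = 0.0241). Both therefore moved by a like amount, and how the authors' counting divided reads between them is not given in the sources used here. EZH2P1, a processed pseudogene of EZH2, had 0 to 2 counts per library, and JARID2-AS1, an antisense transcript at the JARID2 locus, 0 to 4; neither was tested.

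RBBP4 and RBBP7, which belong to several chromatin complexes besides PRC2, come from a list of other PRC2 partners. RBBP7 was at 121 ± 1.48 CPM in the controls and at 134 ± 4.33 CPM after SOX2 siRNA (SD, n = 3; log2 fold change 0.14, SE 0.0376; edgeR adjusted p = 0.00772). RBBP4, by far the most abundant of the set at 489 ± 12.4 and 473 ± 12.9 CPM, had a log2 fold change of -0.05 (95% interval -0.122 to 0.0245; edgeR adjusted p = 0.331). RBBP7 was thus higher in every SOX2 siRNA library, and the groups overlapped for RBBP4.

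The largest falls were those of the PRC2.2 pair. JARID2 (chr6:15246296-15522040, plus strand), a Jumonji-family protein without demethylase activity that binds nucleosomes and stimulates the enzyme, was at 157, 159 and 162 CPM in control and at 127, 126 and 121 CPM in SOX2 siRNA libraries. The gap between the groups was wider than the whole range within either. The log2 fold change was -0.36 (SE 0.0367, 95% interval -0.433 to -0.278; edgeR adjusted p = 9.42e-07), and it stayed between -0.38 and -0.34 over the 15 alternative settings. AEBP2 (chr12:19404045-19720801, plus strand) encodes a zinc-finger protein of the same variant. Its transcript was at 52.0, 56.4 and 58.5 CPM in control and at 46.3, 43.8 and 45.5 CPM in SOX2 siRNA libraries. Control replicate 1 lay nearest to the SOX2 siRNA group, and the groups did not overlap. The log2 fold change was -0.30 (SE 0.0503, 95% interval -0.405 to -0.192; edgeR adjusted p = 2.20e-04).

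Of the 3 Polycomb-like genes, whose proteins read methylated histone H3 through a Tudor domain and bind CpG-rich DNA, 2 rose. PHF19 (chr9:120855652-120894896, minus strand) was at 26.3, 23.9 and 24.6 CPM in control and at 35.9, 34.8 and 37.1 CPM in SOX2 siRNA libraries. Its lowest SOX2 siRNA library was far above its highest control library, and the log2 fold change of 0.52 (SE 0.0546, 95% interval 0.408 to 0.639; edgeR adjusted p = 1.07e-06) was the largest of the 10 members in either direction. MTF2 (chr1:93079235-93139081, plus strand), the main Polycomb-like protein of embryonic stem cells, was at 92.9, 96.8 and 98.0 CPM in control and at 111, 112 and 116 CPM in SOX2 siRNA libraries. All SOX2 siRNA libraries lay above all control libraries, with a log2 fold change of 0.24 (SE 0.0388, 95% interval 0.156 to 0.320; edgeR adjusted p = 1.61e-04).

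PHF1 (chr6:33410399-33416453, plus strand) was at 31.2, 29.3 and 29.6 CPM in control and at 33.7, 30.1 and 30.9 CPM in SOX2 siRNA libraries, which overlapped. Its log2 fold change was 0.07 (95% interval -0.0496 to 0.188; edgeR adjusted p = 0.405), and 0.016 without SOX2 siRNA replicate 1. That interval does not reach the interval of PHF19, but the difference between the genes was not tested. PHF1 shares 12 exonic bases with CUTA on the opposite strand, 0.33% of its exon length, and the use of strand in counting is not given in the sources used here. EPOP (chr17:38671703-38675421, minus strand), which links PRC2.1 to elongin, was at 49.8, 45.9 and 46.5 CPM in control and at 46.4, 47.0 and 43.9 CPM in SOX2 siRNA libraries. These overlapped too (log2 fold change -0.05, 95% interval -0.154 to 0.0525; edgeR adjusted p = 0.491), and the log2 fold change was -0.012 without control replicate 1 and -0.025 without SOX2 siRNA replicate 3.

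**Figure D2:**
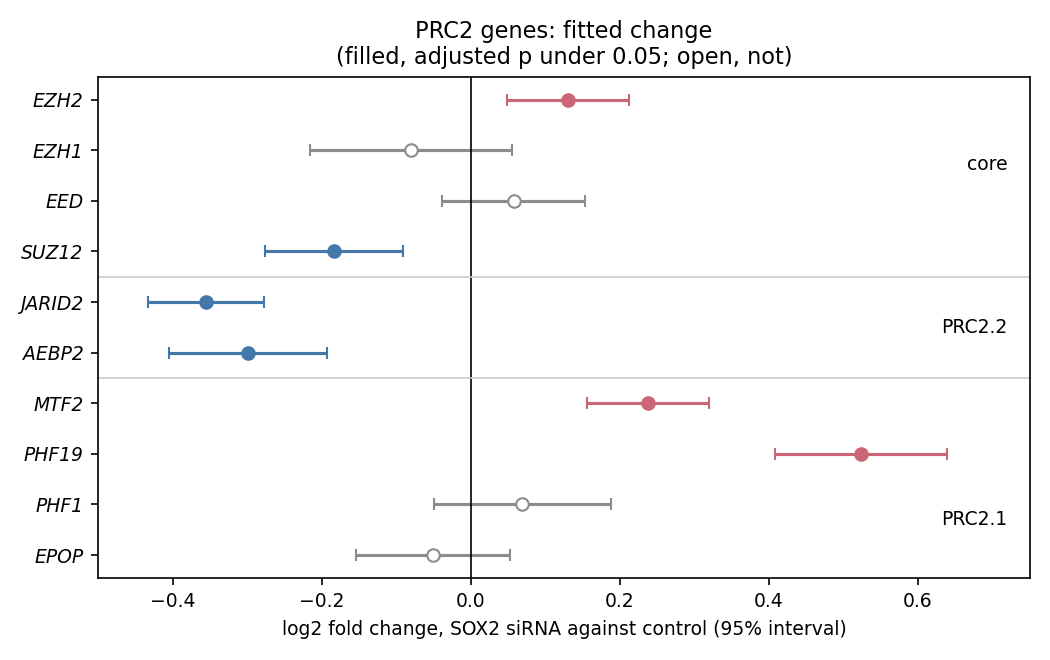
Fitted log2 fold change of each PRC2 gene, SOX2 siRNA against control (horizontal axis), with its 95% interval, arranged as core, PRC2.2 and PRC2.1 genes; filled points passed an adjusted p under 0.05. Both PRC2.2 genes lie below 0 (-0.36 and -0.30), PHF19 and MTF2 lie above it (0.52 and 0.24), and the intervals of EZH1, EED, PHF1 and EPOP cross it.

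LCOR and LCORL, loci that also encode further PRC2.1 partners, are counted here as whole genes, so the PRC2-binding isoforms cannot be separated. LCOR was at 159.6 ± 9.04 CPM in the controls and at 138 ± 2.19 CPM after SOX2 siRNA (SD, n = 3; log2 fold change -0.21, SE 0.0418; edgeR adjusted p = 0.00118). LCORL was at 32.0 ± 2.54 and 34.7 ± 1.13 CPM (log2 fold change 0.12; edgeR adjusted p = 0.142). EZHIP, an inhibitor of the catalytic subunit normally restricted to germ cells, had 0 or 1 count per library and was not tested. Of the 5 partner genes, 4 were tested, 1 was called higher and 1 lower, where 14.8% and 13.4% of all tested genes were; 1 was called without SOX2 siRNA replicate 2.

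The balance between the accessory sets was expressed as the share of JARID2 and AEBP2 in the summed CPM per kb of all 6 accessory members. LCORL and LCOR, the latter called lower at a log2 fold change of -0.21, are not among these 6. The share was 40.3%, 41.8% and 42.0% in control and 33.4%, 33.3% and 32.6% in SOX2 siRNA libraries. The groups did not overlap, with means of 41.4% ± 0.908 and 33.1% ± 0.429 (SD, n = 3), a difference of -8.27 percentage points. The JARID2 to MTF2 ratio fell from 1.19 ± 0.0166 to 0.791 ± 0.0391 and the PHF19 to MTF2 ratio was 0.253 ± 0.0191 and 0.309 ± 0.00729 (SD, n = 3). These are ratios of transcripts among members whose own values are given above, so they restate those values, carry no test and say nothing of the amounts of protein or assembled complex. In bulk RNA, fewer cells expressing a gene and less RNA per cell cannot be told apart.

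**Figure D3:**
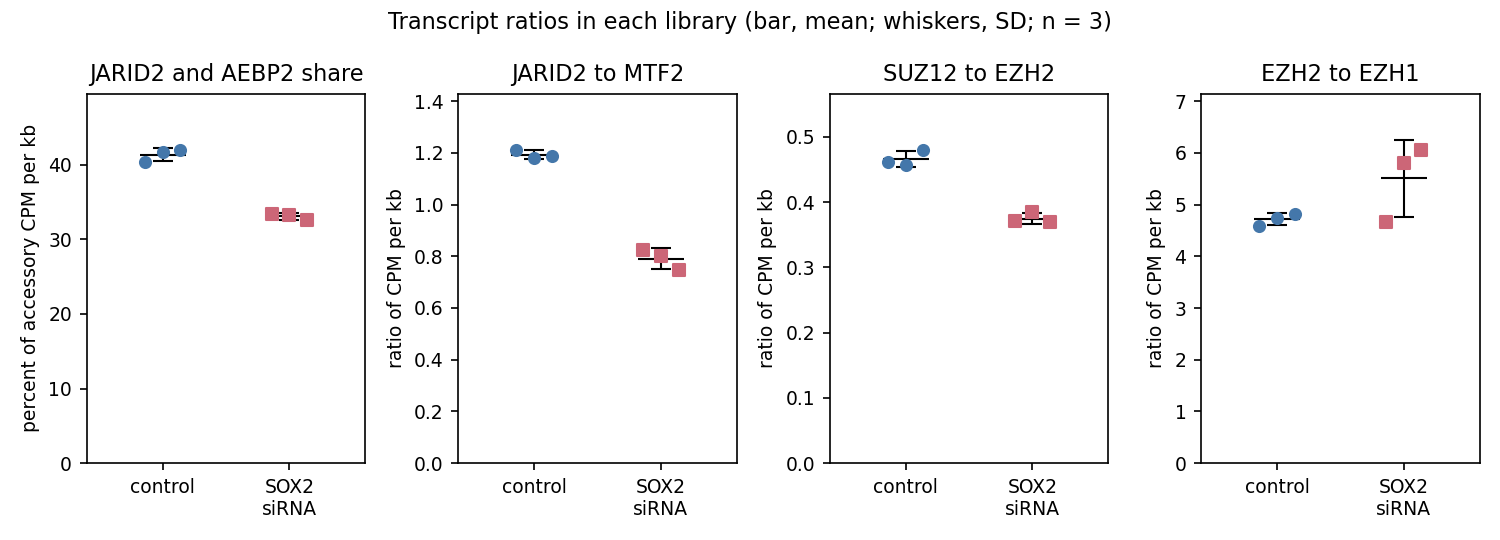
Ratios of transcript levels in CPM per kb (vertical axes, from 0) in the 3 control (circles) and 3 SOX2 siRNA libraries (squares), with mean and SD. The JARID2 and AEBP2 share of the accessory genes drops from 40.3% to 42.0% in control to 32.6% to 33.4%, while the EZH2 to EZH1 ratio overlaps between the groups.

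The sequences before the RefSeq transcription starts (GRCh38.p14) of the called members are shown because JARID2 and AEBP2 fell together and PHF19 and MTF2 rose together, with EZH2 and SUZ12 added as the other called members. RefSeq gave 12 start windows for 9 of the 10 members, and the 250 bases before each start were searched on both strands for ACAATG and ACAAAG, the core letters bound by SOX proteins, and for TTTCCCGC, TTTCGCGC, TTTGCCGC and TTTGGCGC, letters of E2F sites, a class of factor known to drive EZH2. No motif of one set overlaps one of the other in the windows shown. A stretch around the matches is printed for each of the 6 called members, without bases that GENCODE places in exons, with the matches in capitals.
JARID2 (chr6:15248699-15248796, plus strand): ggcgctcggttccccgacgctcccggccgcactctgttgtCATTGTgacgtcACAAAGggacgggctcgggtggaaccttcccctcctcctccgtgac
AEBP2 (chr12:19440409-19440496, plus strand): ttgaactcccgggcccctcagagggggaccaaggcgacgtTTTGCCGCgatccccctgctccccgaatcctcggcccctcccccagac
SUZ12 (chr17:31936757-31936865, plus strand): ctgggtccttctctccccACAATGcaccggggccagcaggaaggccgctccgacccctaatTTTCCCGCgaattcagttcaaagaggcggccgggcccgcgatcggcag
EZH2 (chr7:148883657-148883735, minus strand): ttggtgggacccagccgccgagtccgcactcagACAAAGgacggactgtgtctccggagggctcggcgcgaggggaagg
MTF2 (chr1:93079110-93079195, plus strand): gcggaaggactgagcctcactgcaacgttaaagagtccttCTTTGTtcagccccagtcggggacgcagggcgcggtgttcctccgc
PHF19 (chr9:120877329-120877380, minus strand): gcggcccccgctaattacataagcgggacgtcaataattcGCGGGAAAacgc

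One of the 2 JARID2 windows held a SOX-type match on each strand, beginning 116 and 104 bases before the start. SUZ12, EZH2 and MTF2 held 1 each at 232, 217 and 133 bases, for EZH2 in 1 of its 2 windows. So 4 of 12 member windows held a SOX-type match, among them those of genes that rose and of genes that fell; 21.2% of all 35116 RefSeq windows held one. E2F-type letters were in windows of AEBP2, EZH1, PHF19 (1 of its 2) and SUZ12. That is in 4 of 12 windows, and 2.79% of all windows held such letters. Neither EZH2 window held any. The 12 windows ranged from 51.2% (EED) to 79.6% (EZH2) in G and C, against a median of 58.0% over all windows. Only the EED window lay below this median, and the others held 64.4% or more. The part of G and C content in the counts of matches was not tested. A match is a string of letters, and no binding was measured here.

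Beyond PRC2, a list of 27 genes of Polycomb repressive complex 1 (PRC1), which ubiquitinates histone H2A and includes readers of the PRC2 mark, was examined. All 27 were tested, 7 were called higher and 6 lower (against 14.8% and 13.4% of all tested genes), and the median log2 fold change was -0.04. BCOR, a corepressor of the PCGF1-containing variant, fell from 45.7 ± 0.755 CPM to 30.4 ± 1.20 CPM (SD, n = 3; a log2 change of -0.59, SE 0.0489; edgeR adjusted p = 6.35e-08), whereas its paralog BCORL1 rose from 44.3 ± 0.221 to 55.0 ± 1.56 CPM (0.31, SE 0.0441; edgeR adjusted p = 3.59e-05). PHC2, a Polyhomeotic subunit of canonical PRC1, rose (0.32; edgeR adjusted p = 1.03e-05) and PCGF5, which defines another variant, fell (-0.40; edgeR adjusted p = 3.84e-05). The catalytic genes RING1 and RNF2 were not called, with log2 fold changes of 0.07 and -0.11.

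Of 6 genes that remove Polycomb marks, the H3K27 demethylases and the H2A deubiquitinase with its cofactors, 5 were tested and 3 called, where 28.2% of all tested genes were. The catalytic deubiquitinase gene BAP1 and its cofactor ASXL1 rose, by 0.16 and 0.15 on the log2 scale (edgeR adjusted p = 0.00613 and 0.00785), and ASXL2 fell by 0.11 (edgeR adjusted p = 0.0461). The demethylase gene KDM6A was at 88.1 ± 2.61 and 88.8 ± 2.93 CPM and was not called. KDM6B, the other demethylase gene, was at 33.8 ± 2.14 and 34.0 ± 8.06 CPM, its SOX2 siRNA libraries spreading more than its controls. Without control replicate 3, 1 of the 5 was called in place of 3. There were 2 without control replicate 2, and 2 when any 1 SOX2 siRNA library was left out. Of 12 trithorax and other opposing genes, 1 was called higher (NSD2, a histone H3 methyltransferase of the H3K36 site, at 0.14; edgeR adjusted p = 0.00389) and 1 lower (its paralog NSD3, at -0.11; edgeR adjusted p = 0.0460). These 2 calls are 16.7% of the list, where 28.2% of all tested genes were called. In their place there were 4 without control replicate 1, and 1 without control replicate 2, control replicate 3 or SOX2 siRNA replicate 2.

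A list of 40 developmental transcription factor genes of the kind PRC2 occupies in embryonic stem cells was expressed in part. The filter on low counts kept 21 and removed 19, of which 6 had 0 counts in all libraries. Of the 21 tested, 8 were called higher and 7 lower (14.8% and 13.4% of all tested genes were), with a median log2 fold change of -0.02; these factors are also regulated in ways other than PRC2. EOMES rose from 4.57 ± 0.330 to 34.5 ± 2.14 CPM and NR2F1 from 89.8 ± 3.36 to 154.5 ± 8.82 CPM (SD, n = 3). CDX2 fell from 11.4 ± 0.639 to 3.94 ± 0.407 CPM. The log2 fold changes were 2.92, 0.78 and -1.54 (edgeR adjusted p = 2.01e-14, 5.19e-10 and 3.37e-09), and whether any of these genes carried the PRC2 mark was not measured.

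Transcripts of dividing cells were set beside the members because EZH2 is known to follow the cell cycle. Of 18 proliferation genes, 8 were called, all of them higher (14.8% of all tested genes were called higher), with a median log2 fold change of 0.11; the count ranged from 4 to 11 when 1 library was left out and was 4 without SOX2 siRNA replicate 2. CCNE1, UHRF1, E2F1 and TOP2A rose by 0.48, 0.23, 0.25 and 0.13 on the log2 scale. Replication genes of the list were not called and lay on both sides of 0. MCM5, RRM2, MCM3 and PCNA stood at -0.09, -0.08, -0.07 and -0.04 on the log2 scale. MCM6 and TYMS stood at -0.013 and -0.002, and MCM2 at 0.09. The groups did not overlap for RRM2. The summed level of all 18 genes was 4075 to 4129 CPM in the controls. In SOX2 siRNA replicates 1 to 3 it was 4141, 4345 and 4442 CPM. SOX2 siRNA replicate 1 had the lowest sum and the lowest EZH2 of its group, whereas PHF19 was lowest in replicate 2. Among the controls the lowest sum was in replicate 3 and the lowest EZH2 in replicate 1. The part of proliferation in the values of EZH2 and PHF19 was not tested.

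**Figure D4:**
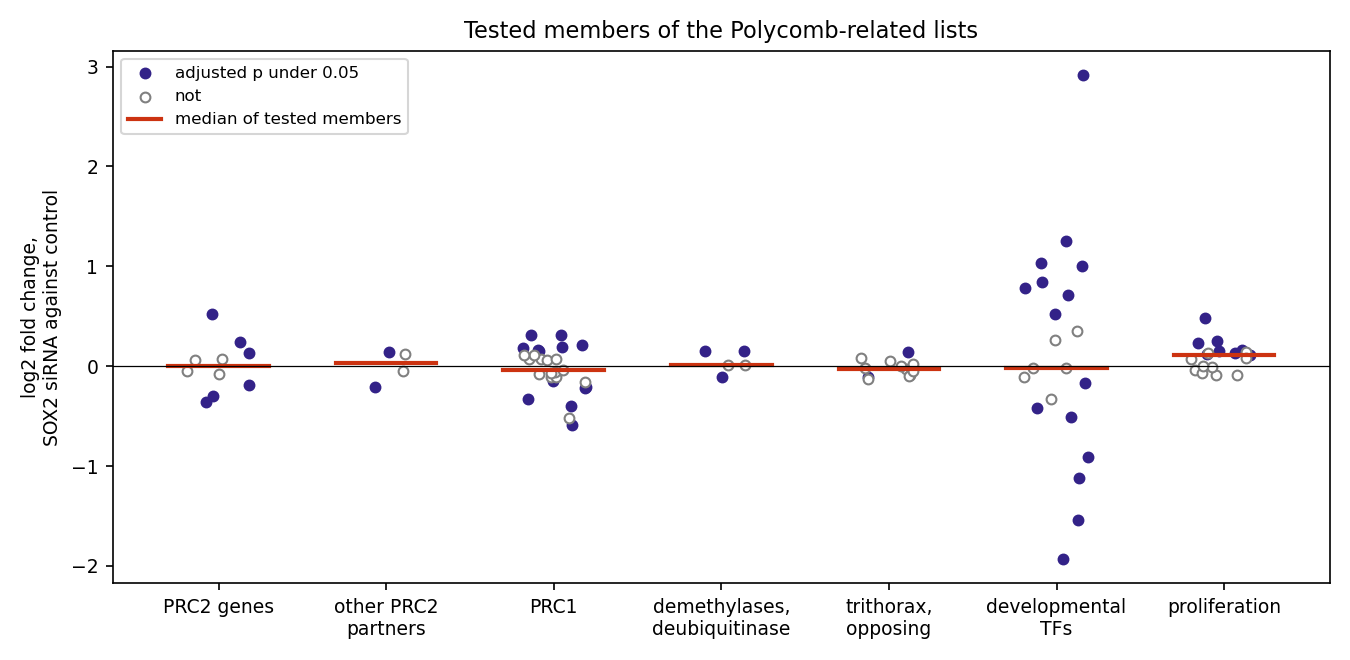
Log2 fold change, SOX2 siRNA against control (vertical axis), of every tested member of the PRC2 genes and the 6 other lists, with filled points for an adjusted p under 0.05 and a bar at the list's median. The PRC2 genes lie between -0.36 and 0.52, the developmental transcription factors (TFs) between -1.93 and 2.92, and 8 proliferation genes are called, all above 0.

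The direction of every member was the same under all 15 alternative settings. Of 150 member values under these alternatives, 146 kept their side of the threshold; 3 lost the call (EZH2) and 1 gained it (EZH1), in each case when a library was left out. For single genes an exact two-sided permutation test of 3 against 3 libraries cannot go below p = 0.1, the value given for each of the 6 called members.

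**Figure D5:**
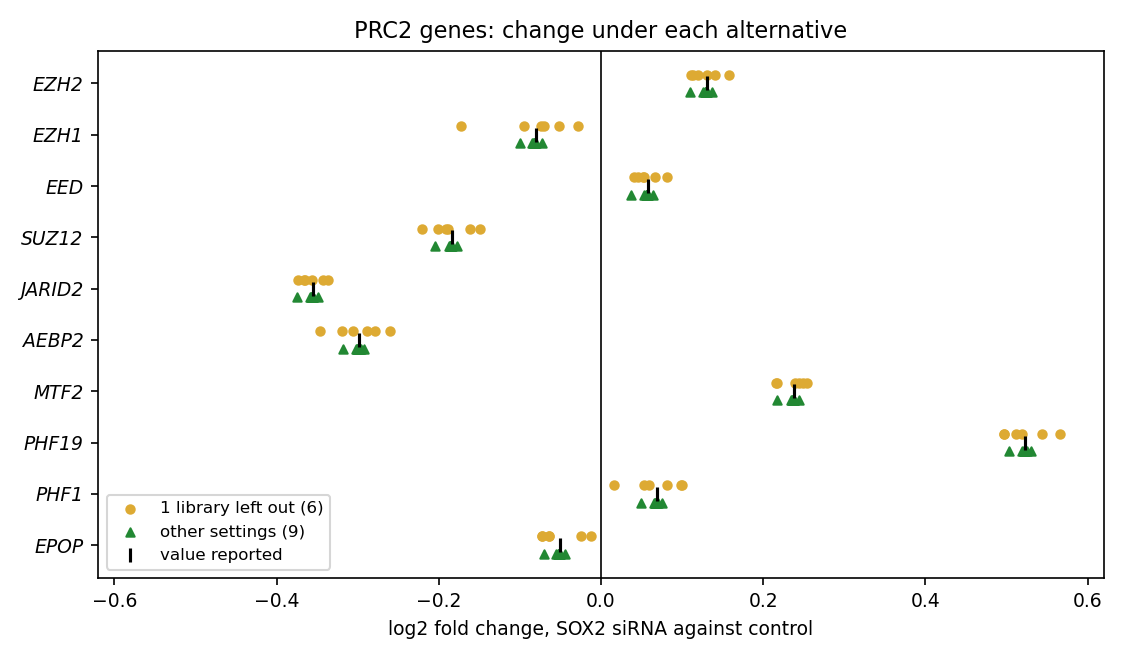
Log2 fold change of each PRC2 gene (horizontal axis) as reported (black), with 1 library left out in turn (circles, 6 fits) and under the 9 other settings (triangles). No point crosses 0, and EZH1 spreads most, from -0.17 to -0.03.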

How the data were processed

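The deposited table holds raw counts per gene symbol, whole numbers with unequal totals. The submitters' processing notes name bcl2fastq 2.20.0, STAR 2.7.3a, Salmon 0.14.1, DESeq2 1.28.1 and GRCh38.p13 without roles; annotation and use of strand are not given in the sources used here. Columns were matched to libraries by description and grouped by title. Members and lists were chosen with earlier results of these data known. Genes named are SOX2, the members and their copies, all other PRC2 partners, and markers. From each list the called genes of smallest p, at most 4, are also named. RING1, RNF2, KDM6A, KDM6B, MCM2, MCM3, MCM5, MCM6, PCNA, RRM2, TYMS and the markers were named after their values were seen. Certain list genes are not reported here.

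Genes were kept by filterByExpr (minimum count 10), scaled by TMM (factors 0.991 to 1.01) and tested by edgeR 4.0.16 quasi-likelihood (robust=TRUE, R 4.3.3) over all 17592 genes, with Benjamini-Hochberg adjustment and a threshold of 0.05. Tested genes held 99.9% of counts. Alternatives used DESeq2 1.42.0 and limma 3.58.1. Reads amplified by PCR are not independent molecules, so the floor of 3 counts covers counting error only. Lengths, exons and gene positions are from GENCODE 29 (GRCh38), start windows from RefSeq (GRCh38.p14).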

Additional observations from a re-analysis of the deposited data

How the results depend on the processing

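The alternatives were other scalings (DESeq2 size factors, upper quartile, total counts), other filters (1 count in some library, or 10 in each), other tests (the Wald test of DESeq2, and limma-voom), robust=FALSE, the replicate number as a block, and each library left out; union exon lengths were added after seeing the data. Where a value changed, the cause was not tested. Leaving out 1 library gave EZH2 log2 fold changes of 0.11 to 0.16 and EZH1 of -0.172 to -0.0283; members called ranged from 5 to 7, other PRC2 partners from 1 to 3, demethylase and deubiquitinase genes from 1 to 3, trithorax and opposing genes from 1 to 4 and proliferation genes from 4 to 11. Of 12 trithorax and opposing genes, 4 were called with upper-quartile scaling, total counts only, the filter of 10 counts in each library or the replicate block, and 1 with limma-voom or robust=FALSE, against 2. Of the 5 tested demethylase and deubiquitinase genes, 2 were called with the filter of 1 count, the Wald test, limma-voom or robust=FALSE, against 3. Among members not called, leaving out 1 library gave 0.016 to 0.0998 for PHF1 and -0.0731 to -0.0119 for EPOP. The group difference of the EZH2 to EZH1 ratio ranged from 0.516 to 1.21 with 1 library left out, and was 0.451 in plain CPM. The JARID2 and AEBP2 share differed by -9.16 points without division by length and by -8.29 with union exon lengths. Same-numbered libraries did not deviate together (r = 0.0868, -0.0377 and -0.0311 across genes), so the numbers were not taken as pairs; with the replicate block 5177 genes were called against 4964, and the members' log2 fold changes of 0.13 (EZH2) and -0.08 (EZH1) kept their side of the threshold, as did those of the other 8. The members had 600 to 5183 counts per library, above the floor of 3 counts.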
